A study of Mus musculus with 10 samples.

Results

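The 37 genes described here encode the enzymes of the tricarboxylic acid (TCA) cycle and of the reactions that carry pyruvate, glutamine and the amino acids linked to them into and out of it. They were chosen by gene symbol for this function, with earlier results of these data known. All 37 matched 1 of the 26335 rows of the expression table, and all 37 had a mean log2 CPM above 0 (CPM, read counts scaled to one common library total), the filter that left 12306 genes for testing. The RNA came from a mouse small cell lung cancer (mSCLC) line grown from a lung tumour of a mouse model with conditional deletions made by Cre adenovirus given into the trachea, so both groups carry the same deletions and stand for 1 line. Cells were cultured for 48 h with the solvent DMSO (control, 5 libraries) or with stiripentol (5 libraries), an antiseizure drug known to inhibit lactate dehydrogenase. The question was which transcripts differ after this exposure, here for central carbon metabolism.

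The TCA cycle oxidises the acetyl group of acetyl-CoA in the mitochondrial matrix, and the NADH and succinate it yields feed the respiratory chain. Pyruvate enters through its carrier and the pyruvate dehydrogenase complex, while pyruvate carboxylase, malic enzymes and glutamine-derived 2-oxoglutarate add or remove intermediates. Aminotransferases join the cycle to aspartate, alanine and glutamate, and the malate-aspartate shuttle uses cytosolic and mitochondrial forms of aspartate aminotransferase and malate dehydrogenase to move reducing equivalents across the inner membrane. Tumour cells depend on these reactions both for energy and for building blocks of lipids, nucleotides and proteins.

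Libraries held 22375625 to 65299372 reads in the control group and 55015760 to 60670901 in the stiripentol group, and control 5 was the shallowest. Nothing in the labels said whether libraries of a group came from separate cultures, so p-values measure only the spread between these libraries. In each group the libraries fell into 2 sets that the labels do not name. Controls 4 and 5 formed a pair and controls 1 to 3 a trio, as did stiripentol 1 and 2 and stiripentol 3 to 5. Pearson's r over the tested genes was 0.983 to 0.997 within a set and group, and 0.920 to 0.939 between the sets of a group. The pair of each group was set against the pair of the other, and trio against trio, by set size alone, since the record numbers differ. Controls 1 to 3 had another value at 0 reads (-4.82 log2 CPM) than all other libraries (-4.74), the stiripentol trio included. Between the groups, r was 0.88 to 0.94 in matched sets and 0.84 to 0.94 in unmatched sets, which does not settle the matching. Values within a set are given beside the pooled values. They rest on this matching and on sets found in these same data, as do their p-values. Of 9 neuroendocrine markers 6 were matched in the table, of which only Ncam1 and Uchl1 passed the filter, and Epcam had 0 to 1 reads, while Krt8 and Krt18 were at 9.43 log2 CPM or more and 6 of 7 fibroblast markers passed. Epcam, which helps define epithelial cells, was thus at or near 0 in every library.

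Over all 10 libraries, transcripts of the 3 aminotransferases among the members, Got1, Got2 and Gpt2, rose with stiripentol, by 1.42-fold to 2.35-fold. So did those of Pdhb, Cs, Mpc2 and Pck2, while Idh1 fell 2.43-fold and Gls2 1.90-fold. That is 7 members higher and 2 lower at an adjusted p under 0.05 (limma on log2 CPM, Benjamini-Hochberg over the 12306 tested genes), with 28 not called. Over all tested genes 13.6% were higher and 14.1% lower, against 18.9% and 5.41% of the members. The members' median log2 change was 0.19, beside -0.06 over all tested genes.

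**Figure D1:**
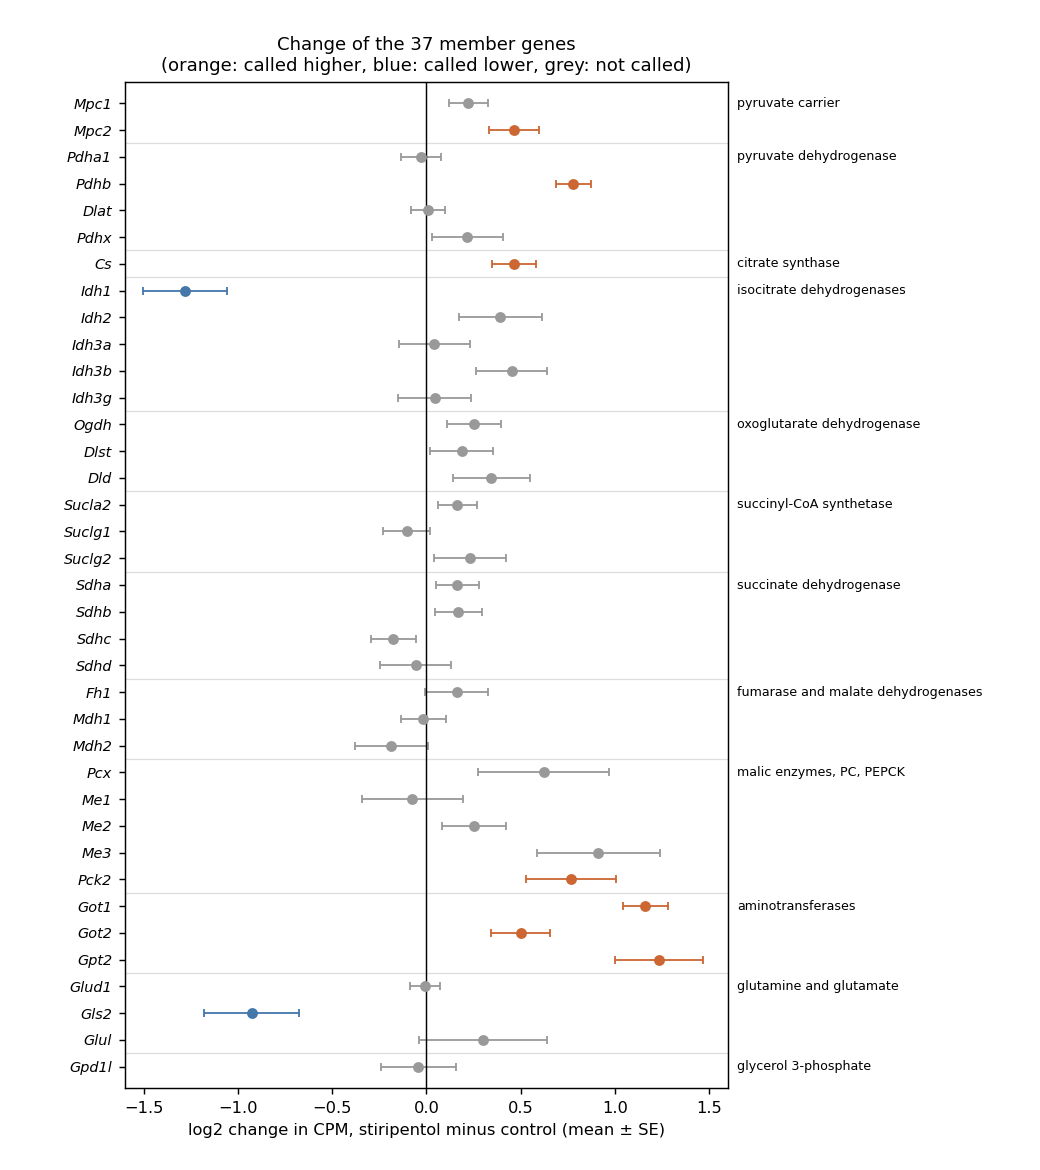
Log2 change in CPM (x axis, stiripentol minus control, mean ± SE, 5 libraries a group) for each of the 37 members (y axis), ordered by role; orange marks members called higher, blue lower and grey not called. The changes run from -1.28 (Idh1) to 1.23 (Gpt2), and 20 of 37 lie within 0.25 of 0.

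All stiripentol libraries lay above all control libraries for 8 members and below them for 2. The shares over all tested genes were 13.0% and 14.3%. The 8 were the 7 members called higher plus Me3, and the 2 were Idh1 and Gls2. In bulk RNA, fewer cells of a type and less RNA per cell cannot be told apart. Summed neuroendocrine, epithelial, fibroblast and immune markers moved with treatment without overlap of the groups, those of the line's own labelled type included. Summed endothelial markers overlapped, at 0.377 to 1.02 CPM in control and 0.655 to 5.98 CPM in stiripentol libraries. The neuroendocrine list was at 93.5 to 120 CPM in control and 127 to 157 CPM in stiripentol libraries, mostly Ncam1, and the epithelial list, carried by Krt8 and Krt18, at 2278 to 2598 and 1544 to 2145 CPM. Summed fibroblast markers were at 404 to 696 CPM in control and 152 to 185 CPM in stiripentol libraries, with Lum at 0 to 3 reads. The summed immune markers were at 4.27 to 18.3 and 55.3 to 103 CPM through Cd68, with Ptprc at 0 to 3 reads. Their part in the changes below was not tested.

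The promoters of the 4 members whose calls were kept most often across other ways of processing are shown for reference, from RefSeq on GRCm38.p6. Each run is the gene strand, 5′ to 3′, upstream of an annotated start and stops before any annotated exon. Capitals mark matches, on either strand, to a CCAAT box (CCAAT), a C/EBP-ATF element (TTGCATCA) or an ERR element (AAGGTCA). Got1 lies at chr19:43524606-43524855 (minus strand), Gpt2 at chr8:85492326-85492575 (plus), Pdhb at chr14:8173026-8173242 (minus) and Idh1 at chr1:65179182-65179392 (minus), the last upstream of a start inside the gene.
Got1: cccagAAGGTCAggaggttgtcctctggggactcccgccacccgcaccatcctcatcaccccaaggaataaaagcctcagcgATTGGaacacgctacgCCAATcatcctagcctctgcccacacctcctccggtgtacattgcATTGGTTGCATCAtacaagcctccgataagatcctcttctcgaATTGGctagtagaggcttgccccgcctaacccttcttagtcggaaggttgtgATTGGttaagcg
Gpt2: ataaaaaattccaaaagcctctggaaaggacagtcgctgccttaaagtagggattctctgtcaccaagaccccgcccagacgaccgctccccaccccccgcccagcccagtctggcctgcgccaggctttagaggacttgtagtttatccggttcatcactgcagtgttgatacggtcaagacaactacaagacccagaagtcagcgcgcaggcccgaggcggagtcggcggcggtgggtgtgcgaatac
Pdhb: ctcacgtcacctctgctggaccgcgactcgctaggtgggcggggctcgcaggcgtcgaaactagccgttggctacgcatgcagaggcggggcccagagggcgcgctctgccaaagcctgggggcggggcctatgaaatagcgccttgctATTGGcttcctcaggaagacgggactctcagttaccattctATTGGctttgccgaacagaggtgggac
Idh1: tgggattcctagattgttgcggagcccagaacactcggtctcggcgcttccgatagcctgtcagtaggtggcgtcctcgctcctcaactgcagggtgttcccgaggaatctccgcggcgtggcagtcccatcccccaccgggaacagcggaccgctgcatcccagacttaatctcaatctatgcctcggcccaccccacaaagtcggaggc

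In the full upstream windows, Got1 held 5 CCAAT boxes and the sole C/EBP-ATF element among the members, starting 102 bases before the start and next to a CCAAT box at 107. Pdhb held 3 CCAAT boxes, Cs 2, Pck2 1 and Mpc2 1, while these letters were not in the windows of Got2 and Gpt2. Idh1, which fell, held 1 CCAAT box at 151 bases before another of its starts, in a window not printed above. Its printed window held none. Windows existed for 33 members, 42 in all, and 23 of the 42 (54.8%), from 20 members, held a CCAAT box, beside 33.9% of the 32851 windows of all genes. The C/EBP-ATF element stood in 0.791% of all windows and the ERR element in 4.08%, the latter in 1 member window. The E-box CACGTG was in 5 windows of 3 members and 6.02% of all windows, and the NRF1 core GCATGCGC in 4 windows of 3 members and 2.26%. The AP-1 element TGACTCA was in 0 member windows and 4.46% of all. Windows of 1 gene can overlap, as those of Ogdh do, so the same site can be counted more than once. A match is a run of letters, not a measured binding site.

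**Figure D2:**
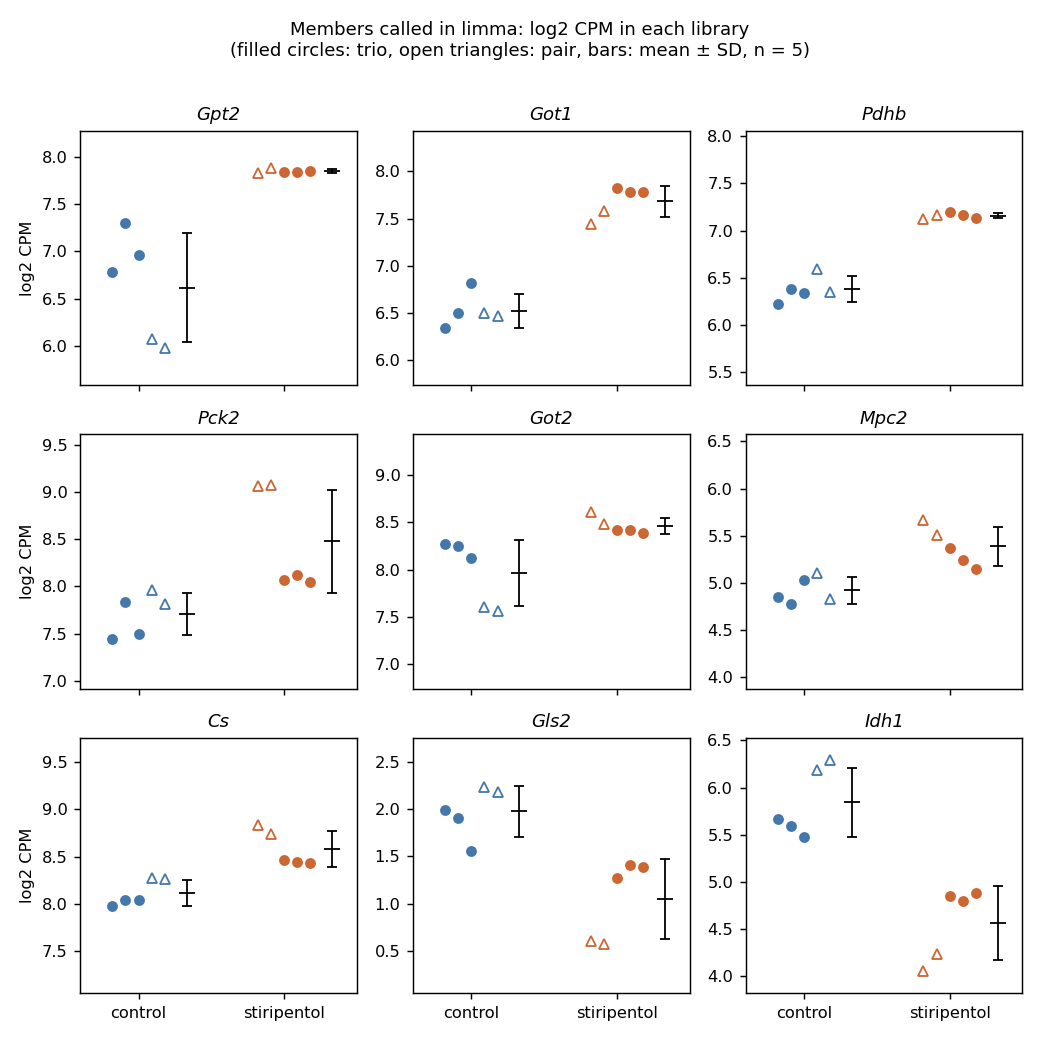
Log2 CPM (y axis, spanning the same range of log2 units in every panel) of the 9 called members in each control (blue) and stiripentol (orange) library; circles are the trio, open triangles the pair, and bars the mean ± SD of 5 libraries. Groups do not overlap in any panel, and in every panel but that of Pdhb the 2 sets are apart in at least 1 group.

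The aminotransferases exchange amino groups between glutamate and the oxo acids of the cycle, and the 3 on the member list rose. Outside the members, the aminotransferases Gpt and Oat were tested and not called. They changed by 0.44 and 0.08 (limma adjusted p = 0.34 and 0.58), and Gpt by -0.57 in the pair and 1.12 in the trio. Got1, the cytosolic aspartate aminotransferase, stood at 6.34, 6.50, 6.82, 6.49 and 6.46 log2 CPM in controls 1 to 5 and at 7.44, 7.58, 7.83, 7.79 and 7.79 in stiripentol 1 to 5. The lowest stiripentol library was thus above the highest control. The log2 change was 1.16 (SE 0.12, adjusted p = 0.00018), a rise of 2.24-fold. Both sets showed it, with 1.03 in the pair and 1.25 in the trio, and the changes of the sets did not differ by the test (interaction adjusted p = 0.27).

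Gpt2, the mitochondrial alanine aminotransferase that joins pyruvate to glutamate, was the member with the highest change. Controls were at 6.79, 7.30, 6.96, 6.07 and 5.97 log2 CPM and stiripentol libraries at 7.83, 7.89, 7.84, 7.85 and 7.85. The control pair lay about 1 log2 unit below the control trio, while the stiripentol libraries spread over an SD of only 0.022. The change was 1.23 (SE 0.23, adjusted p = 0.0040), or 2.35-fold, and was larger in the pair (1.84) than in the trio (0.83, interaction adjusted p = 0.00039).

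Got2, the mitochondrial aspartate aminotransferase, showed the weakest of these calls. Control levels were 8.27, 8.25, 8.12, 7.61 and 7.56 log2 CPM against 8.61, 8.48, 8.42, 8.42 and 8.39 after stiripentol. The highest control, from the trio, was 8.27 and the lowest stiripentol library 8.39, so the gap between the groups was small. Its change was 0.50 (SE 0.16, adjusted p = 0.036), with 0.96 in the pair and 0.19 in the trio (interaction adjusted p = 0.000088). The call was lost when any 1 of control 3, 4 or 5 or any 1 stiripentol library was left out, with changes of 0.40 to 0.54 and adjusted p of 0.0502 to 0.0739.

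Pyruvate enters the mitochondrion through a carrier of 2 subunits, Mpc1 and Mpc2. Mpc2 was called with all libraries. Mpc2 stood at 4.85, 4.78, 5.03, 5.11 and 4.83 log2 CPM in control and at 5.67, 5.51, 5.37, 5.24 and 5.15 in stiripentol libraries. These groups did not overlap, but the highest control (5.11) came close to the lowest stiripentol library (5.15). The change was 0.47 (SE 0.13, adjusted p = 0.025), and without control 1 or 2 or stiripentol 1 or 2 it was 0.40 to 0.45 with adjusted p of 0.0505 to 0.0621. Mpc1 changed by 0.22 (adjusted p = 0.13), with 0.31 in the pair (adjusted p = 0.031 in that set alone) and 0.17 in the trio. The difference of the 2 subunits within a library changed by -0.24 (exact permutation p = 0.10, adjusted p = 0.23), so they were not shown to differ. Reads of Mpc1 could be shared with the copy Mpc1-ps, which had 8.54% as many reads.

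Within the pyruvate dehydrogenase complex, which turns pyruvate into acetyl-CoA, only the transcript of the E1 beta subunit was called. Pdhb rose from 6.22, 6.38, 6.34, 6.60 and 6.35 log2 CPM in control to 7.12, 7.17, 7.20, 7.17 and 7.14 after stiripentol. All 5 stiripentol libraries lay within 0.1 of each other and above every control. The change was 0.78 (SE 0.09, adjusted p = 0.00035), or 1.72-fold, with 0.67 in the pair and 0.85 in the trio. A pseudogene copy of Pdhb, Gm6123, had 4.92% as many reads as Pdhb, 1021 in control and 2149 in stiripentol libraries. The partner E1 alpha subunit Pdha1 changed by -0.03, the E2 subunit Dlat by 0.01 and the E3 binding protein Pdhx by 0.22 (adjusted p = 0.85, 0.95 and 0.40). Pdhx went in opposite directions in the sets, -0.36 in the pair and 0.60 in the trio.

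Citrate synthase, Cs, which condenses acetyl-CoA with oxaloacetate and is often used as a marker of mitochondrial content, was at 7.98, 8.04, 8.04, 8.27 and 8.26 log2 CPM in control. Stiripentol libraries held 8.83, 8.75, 8.46, 8.44 and 8.44. In both groups the pair was the higher set. The change was 0.46 (SE 0.11, adjusted p = 0.014), or 1.38-fold, and was close in the 2 sets, at 0.52 and 0.43.

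Isocitrate dehydrogenases came apart by compartment. Idh1, the cytosolic and peroxisomal NADP form that makes NADPH, was the member that fell most. Its levels were 5.67, 5.59, 5.48, 6.18 and 6.29 log2 CPM in control and 4.05, 4.23, 4.85, 4.80 and 4.88 after stiripentol. The pair was above the trio in control and below it in stiripentol libraries. Idh1 fell by 1.28 (SE 0.22, adjusted p = 0.0028), or 2.43-fold, with changes of -2.09 in the pair and -0.74 in the trio (interaction adjusted p = 6.5e-06).

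Idh2, the mitochondrial NADP form, did not pass the test. Controls were at 7.59, 7.41, 7.93, 8.47 and 8.41 log2 CPM and stiripentol libraries at 8.64, 8.61, 8.19, 8.21 and 8.11. Both libraries of the control pair lay above all 3 of the stiripentol trio, so the groups overlapped. The change was 0.39 (SE 0.22, adjusted p = 0.20). Taken within each library, Idh1 minus Idh2 went from -2.12 ± 0.26 to -3.79 ± 0.64 (SD, n = 5), a difference of -1.67 (two-sided exact permutation p = 0.0079, the smallest that the 252 arrangements allow, adjusted p = 0.036 over 9 pairs of genes). This within-library difference does not depend on how libraries are scaled, and it was -2.28 in the pair and -1.27 in the trio. The permutation counts single libraries as separate units, although they are alike within a set.

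The NAD-linked isocitrate dehydrogenase of the matrix, the form that runs the cycle, is built from Idh3a, Idh3b and Idh3g. None of the 3 was called. Idh3b was at 7.31, 7.33, 7.48, 7.91 and 7.75 log2 CPM in control and 8.46, 8.36, 7.79, 7.76 and 7.67 in stiripentol libraries. The groups overlapped because the control pair reached the stiripentol trio, although within each set all stiripentol libraries were above all controls. Its change was 0.45 (SE 0.19, adjusted p = 0.095), with 0.58 in the pair and 0.37 in the trio. Idh3b shares 5 exonic bases with Nop56 on the opposite strand. Idh3a and Idh3g each changed by 0.04, and Idh3g was 0.59 in the pair and -0.32 in the trio.

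From 2-oxoglutarate to oxaloacetate no member was called in either direction, 13 genes in all. The 2-oxoglutarate dehydrogenase complex is made of Ogdh (E1), Dlst (E2) and Dld (E3, shared with pyruvate dehydrogenase). Ogdh stood at 8.17, 7.99, 8.42, 7.64 and 7.77 log2 CPM in control and 8.35, 8.38, 8.17, 8.17 and 8.18 after stiripentol, a change of 0.25 (adjusted p = 0.20). The wider spread lay in the controls, whose pair was below their trio. The 3 subunits changed in the pair by 0.66 for Ogdh, 0.78 for Dlst and 0.81 for Dld, and in the trio by -0.02, -0.21 and 0.03 (adjusted p = 0.88, 0.021 and 0.73 in that set alone). Ogdh and Dlst were also apart between the stiripentol sets. Dlst had the wider gap, at 7.47 and 7.44 log2 CPM in the pair and 7.04 to 7.07 in the trio. The interaction was called for each, with adjusted p of 0.0024, 0.000012 and 0.00018.

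Succinyl-CoA synthetase pairs Suclg1 with either the ADP-linked Sucla2 or the GDP-linked Suclg2. Their pooled changes were -0.11, 0.16 and 0.23 in that order. Suclg2 differed most between the sets, at 0.89 in the pair and -0.21 in the trio (interaction adjusted p = 8.1e-06). Sucla2 rose in the trio, by 0.20 (adjusted p = 0.015 in that set alone).

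Succinate dehydrogenase is both a TCA enzyme and respiratory complex II. Sdha, its flavoprotein, was at 7.64, 7.64, 7.84, 7.86 and 7.92 log2 CPM in control and 8.18, 8.14, 7.82, 7.76 and 7.82 in stiripentol libraries. Only the stiripentol pair was above all controls. The change was 0.16 (SE 0.12, adjusted p = 0.30). The iron-sulfur subunit Sdhb changed by 0.17 and the membrane anchors Sdhc and Sdhd by -0.17 and -0.06, so the 4 subunits shared no direction.

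Fumarase, Fh1, changed by 0.16 and the cytosolic malate dehydrogenase Mdh1 by -0.02. Mdh2, the mitochondrial malate dehydrogenase that closes the cycle, was at 8.34, 8.22, 8.33, 7.52 and 7.43 log2 CPM in control and 7.76, 7.65, 7.89, 7.84 and 7.77 after stiripentol. All stiripentol libraries lay between the control pair and the control trio. The pooled change of -0.19 (SE 0.19, adjusted p = 0.48) joined 0.23 in the pair with -0.46 in the trio. Mdh1 went the other way, -0.40 in the pair and 0.24 in the trio. The ratio of Mdh1 to Mdh2 changed by 0.17 overall (exact permutation p = 0.52).

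Enzymes that refill or drain the cycle gave 1 call, Pck2. This mitochondrial phosphoenolpyruvate carboxykinase draws oxaloacetate out of the cycle. It stood at 7.44, 7.83, 7.50, 7.96 and 7.81 log2 CPM in control and 9.06, 9.08, 8.07, 8.12 and 8.05 after stiripentol. The stiripentol pair was about 1 log2 unit above the stiripentol trio. Pck2 rose by 0.77 (SE 0.24, adjusted p = 0.035), or 1.70-fold, with 1.18 in the pair and 0.49 in the trio (interaction adjusted p = 0.0021). Leaving out control 1, 2, 3 or 5 or stiripentol 1 or 2 gave 0.62 to 0.80 with adjusted p of 0.051 to 0.080, so the call was lost in each case, as it was after centring each library on its median (0.85, adjusted p = 0.058). A stretch of 158 to 185 bases of the Pck2 transcript is at least 95% identical to stretches of other transcripts, Qsox1 and Wdr12 among them, and reads from it could be shared.

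Me3, a mitochondrial NADP malic enzyme, was at 3.27, 3.11, 4.45, 4.76 and 4.67 log2 CPM in control and 5.13, 5.05, 4.97, 4.87 and 4.82 in stiripentol libraries. The groups did not overlap, yet controls 1 and 2 were more than 1 unit below the other controls. The change of 0.91 (SE 0.33) did not pass the test, with an adjusted p of 0.059, and the set values were 0.37 and 1.28. Me1, the cytosolic malic enzyme, and Me2, the NAD-linked mitochondrial one, changed by -0.08 and 0.25. Me1 fell in the pair, by 1.06, and rose in the trio, by 0.58 (interaction adjusted p = 4.8e-07).

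Pyruvate carboxylase, Pcx, which makes oxaloacetate from pyruvate, differed most between the sets. Controls were at 4.19, 4.21, 4.56, 4.89 and 4.97 log2 CPM and stiripentol libraries at 4.16, 4.50, 5.79, 5.72 and 5.76. The stiripentol trio was above every other library and stiripentol 1 below every control. The pooled change of 0.62 (SE 0.35, adjusted p = 0.20) combined -0.60 in the pair with 1.43 in the trio, a gap of -2.03 (interaction adjusted p = 4.9e-06).

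On the glutamine side, Gls2, a glutaminase that turns glutamine into glutamate, fell. It was the member with the fewest reads, 84 to 297 a library, and stood at 2.00, 1.91, 1.56, 2.23 and 2.19 log2 CPM in control and 0.60, 0.57, 1.27, 1.41 and 1.39 after stiripentol. The 2 groups were apart, by the narrow gap between control 3 (1.56) and stiripentol 4 (1.41). Gls2 fell by 0.93 (SE 0.25, adjusted p = 0.022), or 1.90-fold, with -1.62 in the pair and -0.46 in the trio (interaction adjusted p = 0.0014). Without stiripentol 2 the change was -0.81 (adjusted p = 0.0502). Gls2 overlaps 97 exonic bases of Spryd4 on the opposite strand, which had up to 709 reads, and whether the counting used strand is not given in the sources used here.

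Glud1, glutamate dehydrogenase, changed by -0.01 (SE 0.08) and was the steadiest member across controls, with an SD of 0.039. Glul, glutamine synthetase, changed by 0.30 (adjusted p = 0.52), at -0.28 in the pair and 0.68 in the trio. In the controls Glul was 1.47 log2 units higher in the pair than in the trio, the widest such gap among the members. Gpd1l, an enzyme related to glycerol 3-phosphate dehydrogenase, changed by -0.04.

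**Figure D3:**
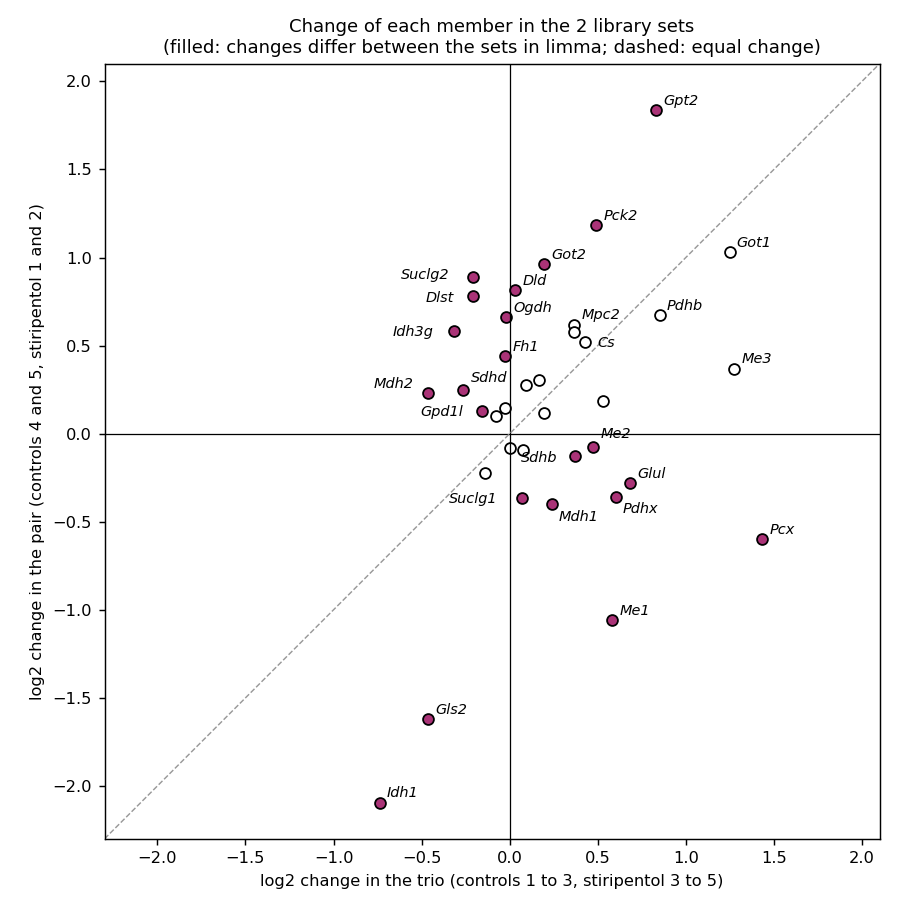
Log2 change of each member in the trio (x axis) against the pair (y axis); filled points are members whose change differed between the sets (limma interaction, adjusted p under 0.05), and the dashed line marks equal change. Got1, Pdhb, Cs and Mpc2 lie near the line, while Pcx (1.43, -0.60) and Me1 (0.58, -1.06) lie far below it.

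The changes of the 2 sets were compared in 1 model, which called the interaction of set and treatment for 22 of 37 members (59.5%), beside 63.3% of all tested genes. The members thus varied between sets about as often as other genes. For 16 members (43.2%) the sets went in opposite directions with a called interaction, against 31.7% of all tested genes. In the pair alone 17 members were higher (25.7% of all tested genes) and 8 lower (46.5%), and in the trio alone 18 were higher (37.7%) and 7 lower (27.0%). The median change of all tested genes was -0.25 in the pair and 0.08 in the trio, and that of the members 0.23 and 0.17.

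Higher calls shared by both sets were found for 9 members, Mpc2, Pdhb, Cs, Idh3b, Me3, Pck2, Got1, Got2 and Gpt2, which is 24.3% beside 15.3% of all tested genes. Idh1 and Gls2 were lower in both, 5.41% beside 18.8%. So the 9 members called with all libraries were also called in each set, and Idh3b and Me3 joined them. The sets were found in these same libraries, which are alike within a set, so these calls are not an independent repeat. With the sets matched the other way round Idh3b did not keep its direction, as the lowest of its 4 set differences was -0.09. The groups of the other members named here did not overlap, so their direction could not change. For them this comparison adds nothing. The absolute gap between pair and trio had a median over the members of 0.33 in control and 0.37 in stiripentol libraries, beside 0.40 and 0.54 over all tested genes.

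Differences between isozymes or subunits within a library were tested for 9 pairs of genes, and 2 passed. The permutation treats the 5 libraries of a group as separate units, although they are alike within a set, so its p-values can be too small. Besides Idh1 and Idh2, the pyruvate dehydrogenase subunits came apart. Pdha1 minus Pdhb went from 1.32 ± 0.13 to 0.51 ± 0.13 (SD, n = 5), a difference of -0.81 (two-sided exact permutation p = 0.0079, adjusted p = 0.036), and the groups did not overlap, with 1.15 the lowest control and 0.67 the highest stiripentol value. The sets gave -0.75 and -0.85. Got1 minus Got2 changed by 0.66 from -1.44 ± 0.38 to -0.78 ± 0.25 (SD, n = 5), with overlapping groups (exact permutation p = 0.024, adjusted p = 0.071). The other 6 pairs changed by -0.33 to 0.31, with adjusted p of 0.23 to 0.99.

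**Figure D4:**
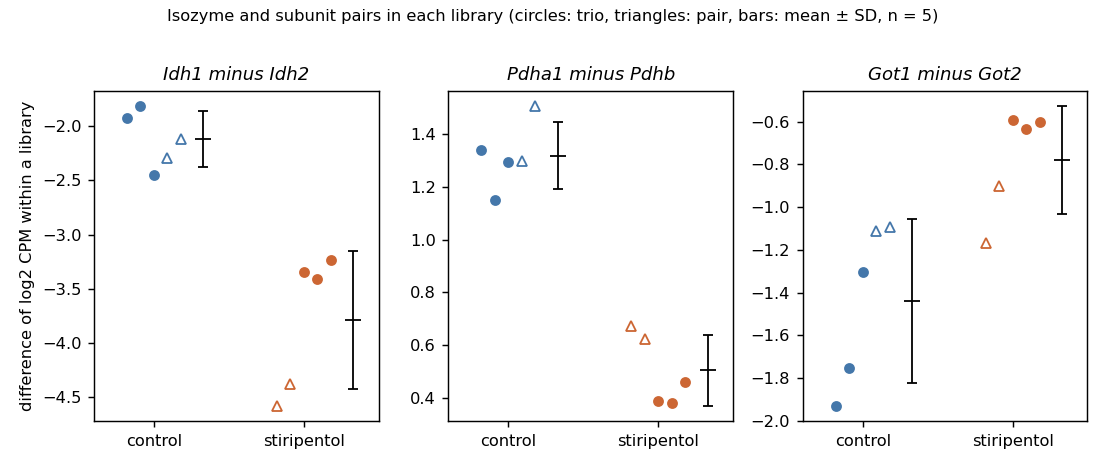
Difference of log2 CPM between 2 genes within each library (y axis; a separate scale per panel) for control (blue) and stiripentol (orange); circles are the trio, triangles the pair, bars the mean ± SD of 5 libraries. Idh1 minus Idh2 and Pdha1 minus Pdhb are lower in every stiripentol library than in any control, and Got1 minus Got2 overlaps between the groups.

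Neighbouring genes of these pathways, 45 in 7 lists, moved in both directions. Of the 40 tested, 7 were higher and 8 lower, beside 13.6% and 14.1% of all genes, and their median change was -0.04. The cytosolic glycerol 3-phosphate dehydrogenase Gpd1 fell by 2.08 (adjusted p = 0.00073), while its mitochondrial counterpart Gpd2 rose by 0.50 (adjusted p = 0.0032). Acly, which splits cytosolic citrate for lipid synthesis, fell by 0.89 (adjusted p = 0.044). In the pair and the trio the changes were -2.68 and -1.67 for Gpd1, 0.67 and 0.39 for Gpd2, and -1.62 and -0.40 for Acly.

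Genes that act on glutamine and glutamate moved in both directions. The glutamine carrier Slc38a2 fell by 1.20 (adjusted p = 0.0024). Asns, asparagine synthetase, which takes its amino group from glutamine, rose by 1.59 (adjusted p = 0.0034), and the proline synthesis enzymes Pycr1 and Aldh18a1 rose by 1.05 and 0.91 (adjusted p = 0.019 and 0.010). In the pair and the trio Slc38a2 changed by -1.54 and -0.98, Asns by 2.68 and 0.86, Pycr1 by 1.29 and 0.89, and Aldh18a1 by 1.34 and 0.62. Slc1a5, Slc38a1, Slc7a5, Oat and Gclc were not called.

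Calls in the remaining lists fell on accessory factors and a carrier. Sdhaf2 and Sdhaf3, assembly factors of succinate dehydrogenase, rose by 0.63 and 0.66 (adjusted p = 0.0045 and 0.0082). Pdp1, a phosphatase that activates pyruvate dehydrogenase, fell by 0.55 (adjusted p = 0.028), with -0.89 in the pair and -0.31 in the trio. Of the kinases that inactivate the complex, Pdk1 changed by -1.13 (adjusted p = 0.087), which combined -2.93 in the pair with 0.06 in the trio (interaction adjusted p = 1.7e-07). Pdk2 changed by 0.34 (0.43 in the pair and 0.28 in the trio) and Pdk3 by -0.08, neither called. Lipt2, which acts in lipoic acid attachment, fell by 1.92 (adjusted p = 0.014) at as few as 12 reads. The aspartate-glutamate carrier Slc25a13 fell by 2.50 (adjusted p = 0.0496), but its groups overlapped. Between the pair and the trio the values were 0.48 and 0.73 for Sdhaf2, 0.75 and 0.60 for Sdhaf3, -2.58 and -1.49 for Lipt2, and -1.71 and -3.02 for Slc25a13.

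**Figure D5:**
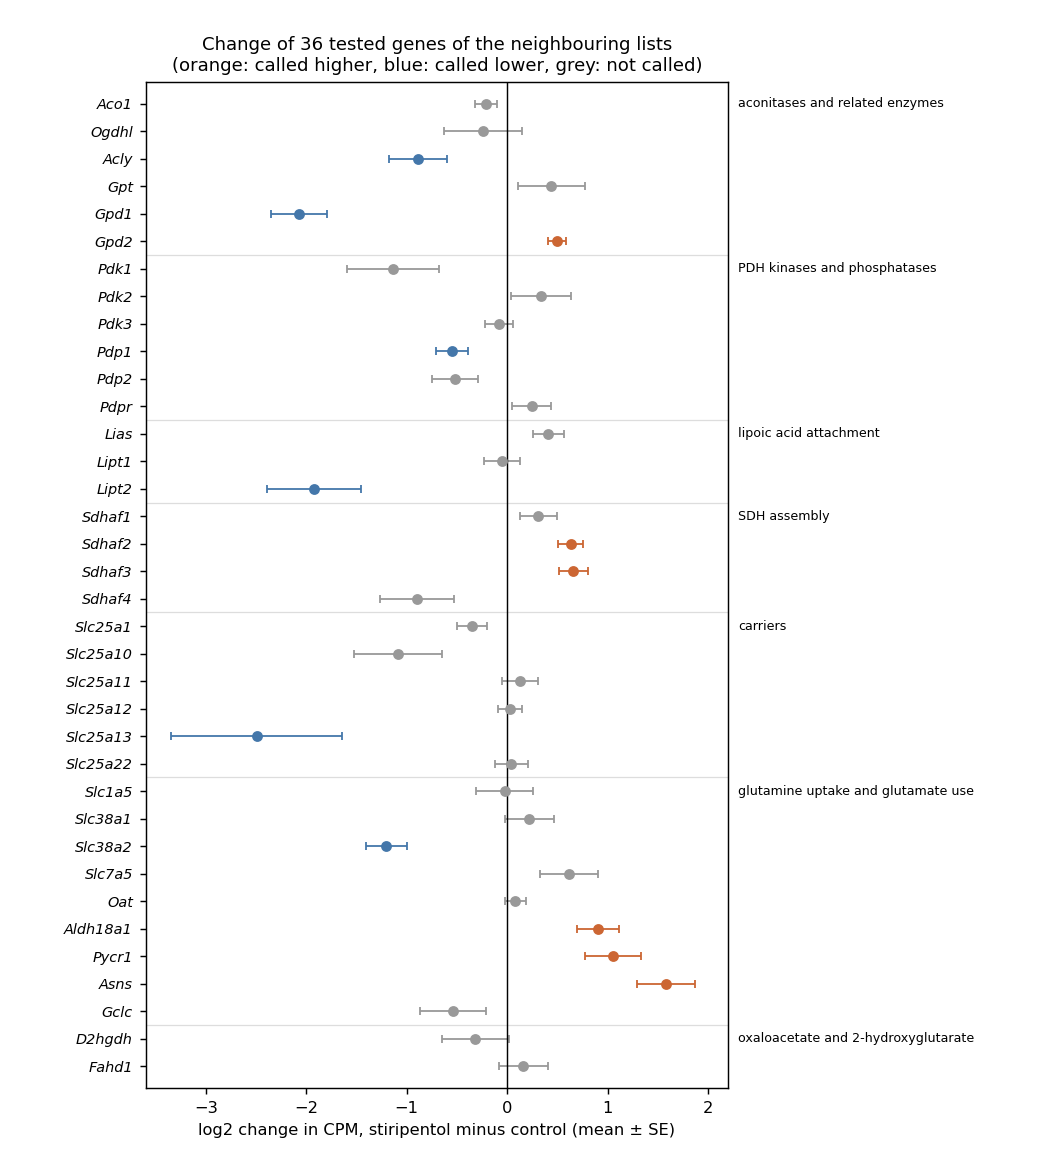
Log2 change in CPM (x axis, stiripentol minus control, mean ± SE, 5 libraries a group) of 36 tested genes of the neighbouring lists (y axis); orange marks genes called higher, blue lower and grey not called. Asns (1.59) has the highest and Slc25a13 (-2.50) the lowest change.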

How the data were processed

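RNA was sequenced from 10 libraries of 1 mouse cell line, 5 control and 5 stiripentol, grouped by the titles of the records. For each gene the file deposited by the authors gives log2 CPM in every library, made with GENAVi, on build mm10 per the submitters' processing notes. The aligner and annotation are not given in the sources used here. The labels name a total RNA kit and the methods a 3′ mRNA kit. Per-gene group means, p-values, q-values and fold changes also stand in the file and were not used. Whole reads were recovered from every column (100% of values within 0.1 of a whole number), which gave the depths. Of the symbols, 14 were day numbers and could not be read as genes.

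Genes with a mean log2 CPM above 0 were fitted with limma 3.58.1 (R 4.3.3, mean-variance trend) with Benjamini-Hochberg adjustment and a threshold of 0.05, first by treatment, then with library set and its interaction. Isozyme pairs were compared by exact permutation over all arrangements (Python 3.11.15). Scripts were checked on simulated data. Positions and overlaps came from GENCODE on GRCm38, copies from blastn 2.17.0+ at 95% identity over 100 bases. Members and lists were chosen with earlier results of these data known. All 37 members are named. Values per library are given for every called member, for the 4 uncalled with the widest change (Me3, Pcx, Idh3b, Idh2) and for Cs, Sdha, Mdh2 and Ogdh, and called genes of the neighbouring lists are named, except that some items are not reported here. Of the 45 list genes, 43 matched a row and Pck1 and Nnt are not analysed here. As alternatives, single libraries were left out, replicate number or library set was added to the model, sets were fitted alone or averaged, and scaling, prior, filter and test (limma voom on recovered reads) were changed.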

Additional observations from a re-analysis of the deposited data

Results flagged for a closer look

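Of 76 groups of 5 libraries checked for a single distant value, 2 had one, where chance gives about 1 in 20, or 3.8. Sdhb stood at 6.36 log2 CPM in control 4, above the other 4 controls, and control 5 had 22375625 reads in total, far below the others.

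For 16 members the change in the pair and the change in the trio had opposite signs, and the interaction of library set and treatment was called. Pair minus trio, the gap was positive for Suclg2 (1.09), Dlst (0.99), Idh3g (0.90), Mdh2 (0.69), Ogdh (0.68), Sdhd (0.51), Fh1 (0.47) and Gpd1l (0.29). It was negative for Pcx (-2.03), Me1 (-1.64), Glul (-0.96), Pdhx (-0.96), Mdh1 (-0.64), Me2 (-0.55), Sdhb (-0.50) and Suclg1 (-0.43). None of the 9 members called over all libraries could be among these 16, since groups that do not overlap fix the sign in both sets.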

How the results depend on the processing

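All alternatives but the check of overlap were planned. The 9 called members kept their direction in every alternative run. Pdhb, Idh1, Got1 and Gpt2 also kept their call in all but 1 of 22, Cs in all but 2, Gls2 in 18 of 21, Mpc2 in 16, Pck2 in 13 and Got2 in 11 of 22. With 1 mean per group and library set, 2 against 2, no member and no neighbouring gene was called (0 higher and 0 lower by limma, and 4 members at an unadjusted p under 0.05, with voom on all libraries calling 8 higher and 2 lower). Members called higher numbered 12 with library set as a term, 17 in the pair alone and 18 in the trio alone, and members called lower 8 in the pair alone and 7 in the trio alone. A filter at a mean log2 CPM above 3 left 1 called lower, as Gls2 was no longer tested. Leaving out 1 library in turn gave 4 to 7 members higher and 1 to 2 lower, and 6 to 7 neighbouring genes higher and 4 to 7 lower. The neighbouring genes higher and lower were 11 and 13 with the set term, 11 and 20 in the pair alone and 17 and 13 in the trio alone, and 5 were lower above the stricter filter. Quantile normalization moved the median change of all genes by 0.10. Chosen after seeing the data, the count of members without overlap was 6 higher and 2 lower after quantile normalization and after centring.

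Same-numbered libraries did not deviate together (r of -0.24 to 0.06). For numbers 1, 2, 4 and 5 this sets a library of the pair against one of the trio. The check therefore cannot tell whether the numbers pair the libraries. With the replicate block, 3 members were higher and 1 lower, 5 neighbouring genes higher and 4 lower, and 0 isozyme pairs passed, where 5 pairs allow no p under 0.0625. Over all genes the block called 1020 higher and 1062 lower.

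Some uncalled members changed sign, and the cause was not tested. Not all of them were near 0, as the pooled change was 0.62 for Pcx, 0.30 for Glul and 0.22 for Pdhx. Over the leave-one-out fits the changes ran from -0.071 to 0.020 for Pdha1, -0.016 to 0.045 for Dlat, -0.058 to 0.14 for Idh3a, -0.089 to 0.13 for Idh3g, -0.18 to 0.025 for Sdhd, -0.059 to 0.038 for Mdh1, -0.20 to 0.097 for Me1, -0.041 to 0.015 for Glud1 and -0.16 to 0.036 for Gpd1l. In the trio alone the reversed changes were those of Pdha1 (0.0026), Idh3a (-0.029), Idh3g (-0.32), Ogdh (-0.019), Dlst (-0.21), Suclg1 (0.068), Suclg2 (-0.21), Fh1 (-0.026), Mdh1 (0.24) and Me1 (0.58), and of the differences Me1 minus Me2 (0.11), Sucla2 minus Suclg2 (0.40) and Idh3a minus Idh3g (0.29). In the pair alone they were those of Dlat (-0.092), Pdhx (-0.36), Sdhb (-0.13), Sdhd (0.25), Mdh2 (0.23), Pcx (-0.60), Me2 (-0.079), Glud1 (0.097), Glul (-0.28) and Gpd1l (0.13), and of Mdh1 minus Mdh2 (-0.63) and Glul minus Glud1 (-0.38). Centring on the median reversed Pdha1 (0.052), Sdhd (0.025), Mdh1 (0.065), Me1 (0.0070), Glud1 (0.073) and Gpd1l (0.040). Set means reversed Dlat (-0.0081) and Glud1 (0.0088), and quantile normalization Mdh1 (0.017) and Glud1 (0.0069).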
